A study of Homo sapiens with 8 samples.

Results

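The proteasome genes were described across 4 genotypes of U2OS, an established human osteosarcoma cell line. Members were all genes whose symbol starts with PSM, then a letter from A to G and a number, without the immunoproteasome subunits PSMB8, PSMB9 and PSMB10. This gave 45 of the 19414 genes in the deposited tables. They are 8 alpha and 8 beta genes of the 20S core, 9 genes of the 19S base, 8 of the 19S lid, 7 assembly chaperones, and 5 genes of activators and an inhibitor. Total RNA was sequenced from 8 libraries, 2 per genotype: Zab+MYC (Zab and overexpressed MYC), MYC (overexpressed MYC), Zab, and WT. Zab stands for Zαβ, a name in general use for a region of ADAR1, an RNA editor, with the Zα and Zβ domains. The region binds Z-form nucleic acids. By its title, the series deals with Z-DNA, a left-handed form of DNA, together with MYC and FACT, a histone chaperone. All groups share the cell line, and the labels name no promoter, clone, time or dose. The labels do not say whether a genotype's 2 libraries came from separate cultures, so the p-values cover the spread between libraries alone, and that spread may be technical. The 2 libraries of each genotype differed by little more than counting error.

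Levels are given as CPM, tags relative to the exon tags of the library and scaled with TMM, which centres most genes. Exon tags per library ran from 686992 to 1326166, and 3 tags stood for 2.26 to 4.37 CPM. MYC was at 706 ± 1.27 CPM in Zab+MYC, 1263 ± 37.1 in MYC, 212 ± 25.1 in Zab and 83.7 ± 15.8 in WT (SD, n = 2). ADAR was at 1043 ± 34.7 CPM in Zab+MYC, 239 ± 11.8 in MYC, 6100 ± 138 in Zab and 267 ± 3.75 in WT, and tags from an introduced construct are not told apart from those of the endogenous gene. The labelled cell type was checked against 7 mesenchymal markers, of which SPARC, COL1A1 and FN1 had ranges that did not overlap between any of the 4 genotypes. SPARC was at 648 ± 34.1 CPM in Zab+MYC, 382 ± 4.78 in MYC, 1294 ± 80.6 in Zab and 1849 ± 1.44 in WT (SD, n = 2). COL1A1 (225, 116, 802 and 1140) and FN1 (103, 43.7, 172 and 388), as mean CPM in Zab+MYC, MYC, Zab and WT, had the same order. VIM stood at 4805 to 7308 CPM, lowest in MYC, RUNX2 at 5.51 to 22.1 and CDH2 at 7.47 to 25.1 CPM, and COL1A2 was at 0 in 6 libraries. The part of these differences in the results below was not tested. The 8 markers of other cell types summed to 2 to 7 tags per library. A change in bulk RNA does not tell fewer cells of a kind from less RNA per cell.

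The proteasome degrades proteins that carry ubiquitin chains. Its core particle is a barrel of alpha rings, which gate entry, and beta rings, in which PSMB5, PSMB6 and PSMB7 carry the chymotrypsin-like, caspase-like and trypsin-like sites. The regulatory particle caps the barrel: the ATPases of its base unfold the substrate and the lid removes ubiquitin. Other caps act without ubiquitin. PSME1 and PSME2 form an interferon-inducible activator linked to antigen processing, PSME3 forms a related nuclear activator, and PSME4 is a large single-chain activator. Growing cells depend on the proteasome, and its genes are known to be induced together when it is inhibited.

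Promoter sequences of 4 members are shown to set side by side a pair of genes that were higher in MYC and hold an E-box, PSMB3 and PSME3, and the activator pair that was lower in MYC, PSME1 and PSME2. PSMD9, the third member with an E-box, is not shown. Its log2 change in MYC against WT was 0.034 (limma, adjusted p = 0.923). Each runs from 250 bases before to 50 bases after the annotated start, 5′ to 3′ on the gene's strand, as RefSeq gives it for GRCh38.p14. The positions are PSMB3 at chr17:38752491-38752790 (+), PSME3 at chr17:42833147-42833446 (+), PSME1 at chr14:24135944-24136243 (+) and PSME2 at chr14:24146561-24146860 (−). Capitals mark every match, on either strand, to 4 motifs: the E-box CACGTG bound by MYC and other factors, the antioxidant response element core TGACNNNGC, the CCAAT box (CCAAT), and the interferon-stimulated response element core, GAAA followed by any 2 bases and GAAA.
PSMB3: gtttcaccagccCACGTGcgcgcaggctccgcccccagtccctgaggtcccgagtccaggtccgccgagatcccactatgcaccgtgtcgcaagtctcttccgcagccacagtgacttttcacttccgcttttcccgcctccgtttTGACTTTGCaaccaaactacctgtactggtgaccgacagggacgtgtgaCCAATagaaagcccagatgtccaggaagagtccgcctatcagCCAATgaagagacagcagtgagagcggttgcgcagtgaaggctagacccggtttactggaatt
PSME3: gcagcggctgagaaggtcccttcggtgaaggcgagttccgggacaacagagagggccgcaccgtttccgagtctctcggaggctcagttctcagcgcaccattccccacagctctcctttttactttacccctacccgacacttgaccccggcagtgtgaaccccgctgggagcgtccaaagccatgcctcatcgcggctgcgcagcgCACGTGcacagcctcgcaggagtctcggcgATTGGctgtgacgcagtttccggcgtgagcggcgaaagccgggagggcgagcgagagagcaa
PSME1: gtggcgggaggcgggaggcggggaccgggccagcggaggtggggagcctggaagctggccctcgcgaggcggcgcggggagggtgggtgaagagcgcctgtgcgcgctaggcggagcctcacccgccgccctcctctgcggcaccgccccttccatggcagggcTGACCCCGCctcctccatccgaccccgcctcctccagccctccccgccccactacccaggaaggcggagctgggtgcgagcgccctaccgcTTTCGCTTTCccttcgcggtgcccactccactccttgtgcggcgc
PSME2: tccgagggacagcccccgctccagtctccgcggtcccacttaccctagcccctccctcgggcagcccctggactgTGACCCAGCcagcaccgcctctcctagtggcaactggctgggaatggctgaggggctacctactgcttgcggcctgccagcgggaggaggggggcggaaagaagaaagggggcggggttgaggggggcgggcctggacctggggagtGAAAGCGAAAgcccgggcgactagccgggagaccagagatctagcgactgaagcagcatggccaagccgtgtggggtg

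Of the 45 members, 39 had a promoter in the RefSeq table, and PSMA7, PSMB1, PSMB6, PSMB7, PSMD4 and PSMG3 were not matched. The E-box was in 3 of 39 (7.69%), namely PSMB3, PSMD9 and PSME3, and in 7.43% of all 27305 promoters of this length. The antioxidant response core was in 12 of 39 (30.8%), including PSME1, PSME2, PSMB3 and PSMD12, and in 13.6% of all promoters. The CCAAT box was in 18 of 39 (46.2%) and in 35.7% of all. The interferon-stimulated core was added after the values of PSME1 and PSME2 were seen. It was in 5 of 39 (12.8%), namely PSMA4, PSMB4, PSMG4, PSME1 and PSME2, and in 3.65% of all promoters. In MYC against WT, PSMG4 (log2 change 1.27) and PSMA4 (0.34) were called higher, PSMB4 (−0.11) was not called, and PSME1 and PSME2 were called lower. A match describes these letters only.

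Levels per transcript length spanned a wide range within each role. Among alpha genes PSMA7 was highest, at a mean over the 8 libraries of 1960 CPM per kb, against 50.4 for PSMA4, the lowest tested alpha gene on the transcript of 4356 bases counted most often. On its shorter counted transcript of 1169 bases PSMA4 would stand at 188 CPM per kb, above PSMA1 (160), PSMA2 (141) and PSMA5 (131). PSMB3 (1440 CPM per kb) led the beta genes, and PSMB2 (53.3) was the lowest tested there. The catalytic subunits PSMB6, PSMB7 and PSMB5 stood at 551, 174 and 161 CPM per kb. The base genes ran from 161 (PSMC5) to 47.7 (PSMC1) and the lid genes from 209 (PSMD7) to 13 (PSMD12) CPM per kb. The value for PSMC1 uses its shorter transcript of 1647 bases, which was counted as often as the longer. On the longer transcript of 4369 bases PSMC1 would stand at 18 CPM per kb. The assembly chaperones PSMG3 (257) and PSMG2 (197) lay far above the other 5, which ran from 6.97 (PSMG4) to 13.4 (PSMD10). PSME1 (275) and PSME4 (8.68) were the highest and lowest of the activators and inhibitor. PSMA7 alone gave 67.3% of the summed alpha level and PSMB3 41.7% of the beta level, so these sums mostly follow 1 or a few genes. PSMA8, the testis-specific alpha gene, had 0 tags in every library, and PSMB11, the thymic beta gene, had 1 tag in 1 library. These 2 were not tested, and the other 43 passed the filter on low values.

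**Figure D1:**
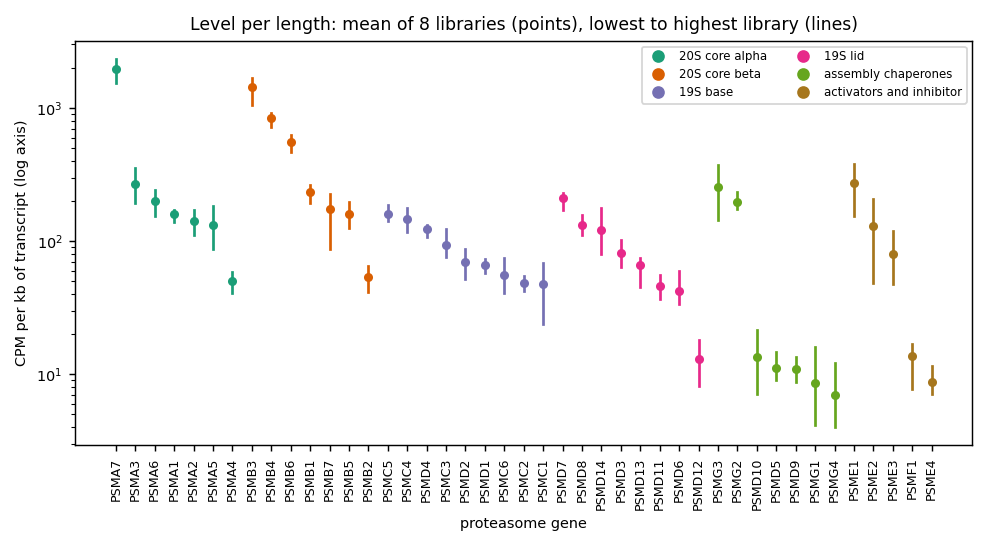
Level per transcript length (CPM per kb, log axis) of the 43 tested proteasome genes, ordered within each role. Points are means over 8 libraries and lines run from the lowest to the highest library; PSMA7, at 1960 CPM per kb, was the highest and PSMG4, at 6.97, the lowest.

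The share of all exon tags on the 45 members was 1.18% in both libraries of Zab+MYC, 1.19% and 1.2% for the MYC libraries, 1.05% and 1.07% for Zab, and 0.989% and 0.991% for WT. The groups with overexpressed MYC lay above the groups without it, and no group overlapped its neighbour. By role, the summed CPM per kb relative to WT was 1.34 in Zab+MYC, 1.46 in MYC and 1.13 in Zab for the alpha genes. The beta genes stood at 1.30, 1.30 and 1.16 in that order of genotypes, the base at 1.13, 1.13 and 0.996, the lid at 1.26, 1.36 and 1.10, and the assembly chaperones at 1.40, 1.65 and 1.16. PSMG3 alone gave 50.9% of the chaperone sum. The summed activators and inhibitor were below WT, at 0.687 in Zab+MYC, 0.563 in MYC and 0.953 in Zab. PSME1 held 54.3% of that last sum, and PSME3, PSME4 and PSMF1 had means above WT in all 3 genotypes.

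**Figure D2:**
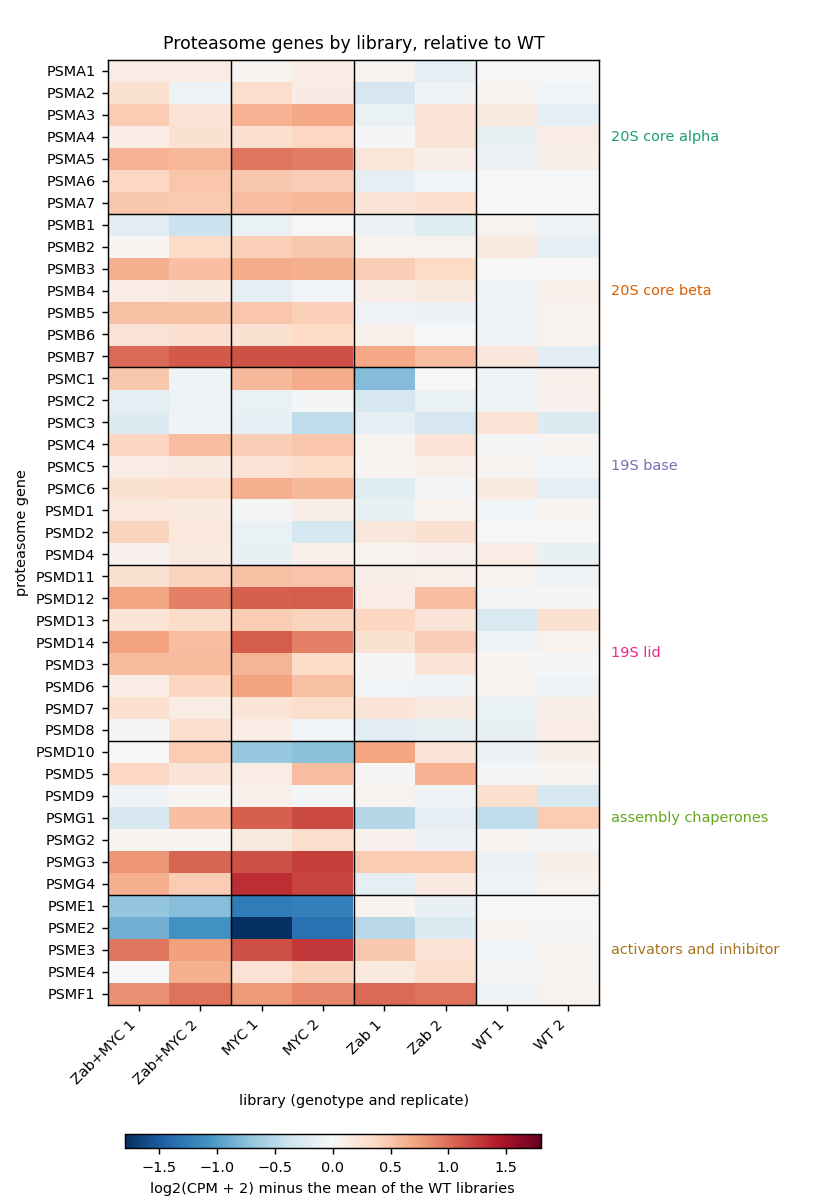
Difference of each library from the WT mean on the log2(CPM + 2) scale, for the 43 tested genes (rows, by role) and the 8 libraries (columns). PSMB7, PSMG3 and PSME3 are red in all Zab+MYC and MYC libraries, PSME1 and PSME2 are blue there, and PSMF1 is red in Zab+MYC, MYC and Zab.

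MYC cells were compared with WT cells to see which subunits followed overexpressed MYC. Of 43 tested genes, 27 were higher and 3 lower (limma, Benjamini-Hochberg adjusted p under 0.05 over 9673 genes). Over all genes 27.8% were called higher and 30.4% lower, 58.2% in all. The median log2 change was 0.43 over the members and −0.04 over all genes. Both MYC libraries lay above both WT libraries for 31 members, a pattern seen in 37.6% of all genes, and below them for 4 (41.3% of all genes). PSMD4 (−0.023), PSMD9 (0.034) and PSMD8 (0.044) changed least. With library totals in place of TMM scaling the split was 22 higher and 6 lower. The median of all genes was then −0.16, and 59.0% of them were called. DESeq2 called 22 members higher and 2 lower, with 41.3% of all genes called. PSMA4, PSMC5, PSMD13 and PSMG2 were called neither with library totals nor with DESeq2. PSMA2 was called higher under 9 alternatives, at 0.23 to 0.35, among them leaving out MYC replicate 2 or any 1 library of Zab or Zab+MYC. PSMB4 was called lower under 3, at −0.24 to −0.18, among them leaving out WT replicate 1, and PSMD10 (−0.82) and PSMD2 (−0.35) were lower with library totals; these 3 were also called lower on the deposited scale.

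In the 20S core, 5 of 7 tested alpha genes and 5 of 7 tested beta genes rose in MYC and none fell. PSMA5 was at 695 and 677 CPM in MYC and 332 and 384 CPM in WT, the largest alpha change, 0.94 ± 0.07 (adjusted p = 2.49e-18) on the log2 scale. PSMA3 changed by 0.66 ± 0.11 (adjusted p = 2.53e-07). PSMA7, the most abundant, was at 2160 and 2211 CPM in MYC and 1469 and 1458 CPM in WT, a change of 0.58 ± 0.04 (adjusted p = 9.64e-21). In none of these 3 genes did the groups overlap. PSMA1 (0.093) and PSMA2 (0.23) were not called. The trypsin-like subunit PSMB7 was at 219 and 219 CPM in MYC and 112 and 84.2 CPM in WT, 2.23-fold higher, with a log2 change of 1.15 ± 0.12 (adjusted p = 7.58e-13). The chymotrypsin-like PSMB5 was at 264 and 249.8 CPM in MYC and 177 and 194 CPM in WT, a change of 0.47 ± 0.10 (adjusted p = 9.1e-05). The caspase-like PSMB6 was at 514 and 543 CPM in MYC and 405 and 442 CPM in WT, a change of 0.32 ± 0.07 (adjusted p = 0.00017). All 3 catalytic subunits were thus higher in both MYC libraries, with PSMB7 the furthest from WT. PSMB3, a structural beta subunit, changed by 0.66 ± 0.05 (adjusted p = 2.22e-18). PSMB1 (−0.058) and PSMB4 (−0.11), both structural beta subunits, were not called. The transcript counted for PSMA4 and PSMB5 differed between libraries in length by over 1.2 times. Leaving out WT replicate 1, PSMA4 (0.23, adjusted p = 0.136) was not called. The call of PSMB2 held without WT replicate 2, at 0.29.

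The base of the regulatory particle was more divided. Of 9 genes 4 rose, PSMC3 fell and 4 were not called, and the median log2 change was 0.05. The ATPase subunit PSMC1 was at 105 and 112 CPM in MYC and 65 and 74.2 CPM in WT, a change of 0.63 ± 0.19 (adjusted p = 0.00333). Its counted transcript was the longer one in both MYC libraries and the shorter one in both WT libraries, and PSMC1 overlaps NRDE2 on the opposite strand. The part of either in the result was not tested. The ATPase PSMC6 changed by 0.61 ± 0.11 (adjusted p = 2.43e-06), PSMC4 by 0.47 ± 0.10 (adjusted p = 3.95e-05) and PSMC5 by 0.30 ± 0.10 (adjusted p = 0.00849). PSMC3, another ATPase, was at 147 and 118 CPM in MYC and 194 and 137 CPM in WT, a change of −0.30 ± 0.14 (adjusted p = 0.0485). The PSMC3 ranges overlapped, and its call was lost in 12 of 20 alternatives. Values for the other ATPase, PSMC2, and for the scaffold subunits PSMD1 and PSMD2 and the ubiquitin receptor PSMD4 lay between −0.22 and 0.050, none called. PSMC2 and PSMD1 overlap SLC26A5 and HTR2B on the opposite strand. Leaving out MYC replicate 2, PSMC3 (−0.11, adjusted p = 0.616) and PSMC5 (0.29, adjusted p = 0.0563) were not called. The fit without WT replicate 1 did not call PSMC3 (−0.039, adjusted p = 0.858). With WT replicate 2 left out, PSMC5 (0.25, adjusted p = 0.0691) missed the threshold. Dropping Zab replicate 1 left PSMC3 (−0.26, adjusted p = 0.0776) uncalled. Leaving out Zab replicate 2, PSMC3 (−0.28, adjusted p = 0.0607) was not called. The fit without Zab+MYC replicate 1 did not call PSMC3 (−0.26, adjusted p = 0.109). With Zab+MYC replicate 2 left out, PSMC3 (−0.25, adjusted p = 0.124) missed the threshold. The call of PSMC3 held without WT replicate 2, at −0.54.

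In the lid, 7 of 8 genes rose. PSMD12 was at 83.1 and 84.1 CPM in MYC and 37.9 and 38.7 CPM in WT, a change of 1.09 ± 0.20 (adjusted p = 1.98e-06). PSMD14, the deubiquitinase that removes ubiquitin chains, was at 274 and 243 CPM in MYC and 122 and 134 CPM in WT, 2-fold higher, with a change of 1.0 ± 0.12 (adjusted p = 9.74e-12). Each MYC library was above each WT library for both genes. The structural lid subunits PSMD6, PSMD11, PSMD3 and PSMD13 changed by 0.63, 0.52, 0.48 and 0.43. PSMD7, the partner of PSMD14, changed by 0.27 ± 0.09 (adjusted p = 0.00629). PSMD8 (0.044) was not called. Leaving out MYC replicate 1, PSMD13 (0.44, adjusted p = 0.0514) and PSMD6 (0.57, adjusted p = 0.0514) were not called. The fit without WT replicate 1 did not call PSMD13 (0.18, adjusted p = 0.417) and PSMD7 (0.17, adjusted p = 0.164). The call of PSMD13 held without WT replicate 2, at 0.70.

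Among the assembly chaperones, all 4 PSMG genes, whose products build the alpha ring, rose in MYC, and none of the 3 base chaperones PSMD5, PSMD9 and PSMD10 was called. PSMG2 and PSMD10 lay close to the threshold, on either side of it. PSMG3 was at 494 and 531 CPM in MYC and 207 and 238 CPM in WT, a change of 1.2 ± 0.09 (adjusted p = 4.67e-20). PSMG4 was at 56 and 52 CPM in MYC and 20.2 and 22.2 CPM in WT, a change of 1.27 ± 0.26 (adjusted p = 2.71e-05). Both were more than 2-fold higher in MYC. PSMG1 was at 25.7 and 27.8 CPM in MYC and 7.57 and 15.9 CPM in WT, a change of 1.13 ± 0.37 (adjusted p = 0.00701) that rested on 5 to 35 tags per library. Its counted transcript also differed in length between libraries. PSMG2 changed by 0.24 ± 0.11 (adjusted p = 0.0491). With limma its call was lost under library totals (0.11, adjusted p = 0.379) and the deposited scale (0.18, adjusted p = 0.134). The same was so among genes counted on the same transcript in all libraries (0.16, adjusted p = 0.179). DESeq2 called neither PSMG2 (0.28, adjusted p = 0.149) nor PSMG1 (1.21, adjusted p = 0.0892). PSMD10 was at 10.7 and 10.3 CPM in MYC and 17 and 20.1 CPM in WT, below WT in both libraries, but its change of −0.71 ± 0.32 (adjusted p = 0.0518) did not pass. Leaving out MYC replicate 2, PSMG2 (0.21, adjusted p = 0.229) was not called. The fit without WT replicate 1 did not call PSMG1 (0.70, adjusted p = 0.187) and PSMG2 (0.29, adjusted p = 0.0605). With WT replicate 2 left out, PSMG2 (0.22, adjusted p = 0.158) missed the threshold.

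The activators split. PSME1 was at 178 and 180.0 CPM in MYC and 427 and 426 CPM in WT, a change of −1.24 ± 0.09 (adjusted p = 3.52e-20). PSME2 was at 37.4 and 59.9 CPM in MYC and 159.6 and 150.5 CPM in WT, a change of −1.67 ± 0.17 (adjusted p = 4.23e-14). Both partners of this activator fell in MYC, 2.37-fold and 3.18-fold. The nuclear activator PSME3 was at 384 and 418 CPM in MYC and 166 and 176 CPM in WT, 2.33-fold higher, with a change of 1.22 ± 0.10 (adjusted p = 6.13e-18). PSMF1, which encodes an inhibitor of the core particle in vitro, was at 114 and 122 CPM in MYC and 63.1 and 69.4 CPM in WT, a change of 0.82 ± 0.14 (adjusted p = 1.19e-06). PSME4 was at 63 and 69.8 CPM in MYC and 51.1 and 53.5 CPM in WT, and its change of 0.33 ± 0.19 (adjusted p = 0.137) did not pass. The calls of PSME1 and PSME2 held under 20 alternatives and those of PSME3 and PSMF1 under the 19 that could be run. PSME1 overlaps EMC9 by 3 bases.

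**Figure D3:**
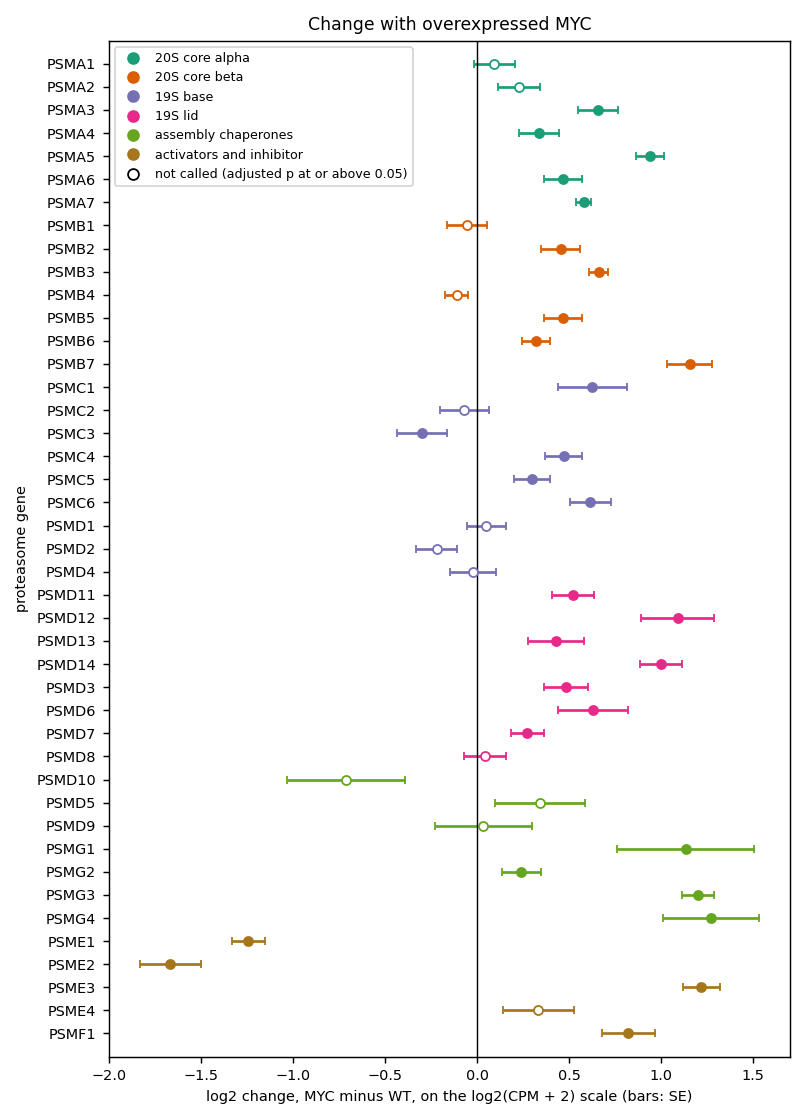
Log2 change (MYC minus WT, log2(CPM + 2) scale, bars are SE) of the 43 tested genes by role; open points were not called. PSME2 at −1.67 and PSME1 at −1.24 lie apart on the left, and PSMG4, PSME3, PSMG3, PSMB7, PSMG1, PSMD12 and PSMD14 lie furthest right.

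Zab cells were compared with WT cells to see which of these genes differed with Zab. MYC was at 229.5 and 194 CPM in Zab and 72.55 and 94.83 CPM in WT. A change with Zab cannot be told apart here from one with the higher MYC. Of 43 members 7 were higher and none lower, where 13.1% of all genes were higher and 11.3% lower (24.4% in all). The 7 were PSMA7, PSMB3, PSMB7, PSMD14, PSMG3, PSME3 and PSMF1. PSMF1 was at 136 and 133 CPM in Zab and 63.1 and 69.4 CPM in WT, 2-fold higher, with a change of 1.0 ± 0.14 (adjusted p = 4.93e-08). PSMB7 was at 158 and 144 CPM in Zab and 112 and 84.2 CPM in WT, a change of 0.62 ± 0.12 (adjusted p = 5.42e-05). PSMG3 was at 306 and 307 CPM in Zab and 207 and 238 CPM in WT, a change of 0.46 ± 0.09 (adjusted p = 2.82e-05). In each of these the 2 Zab libraries lay above the 2 WT libraries. PSMB3 changed by 0.40 ± 0.05 (adjusted p = 3e-09), PSME3 by 0.38 ± 0.10 (adjusted p = 0.00237), PSMD14 by 0.36 ± 0.12 (adjusted p = 0.0158) and PSMA7 by 0.26 ± 0.04 (adjusted p = 3.78e-07). PSME1 (−0.039), PSME2 (−0.37), PSME4 (0.23), PSMB5 (−0.083) and PSMB6 (0.042) were not called, and no base gene was with all libraries. The smallest changes were those of PSMG4, PSMD9 and PSMG2, at −0.0053, −0.0050 and −0.018. The median over the members was 0.06, and both Zab libraries lay above both WT libraries for 16 members (29.8% of all genes) and below for 5 (29.2%). Leaving out WT replicate 1, PSMD14 (0.30, adjusted p = 0.129) was not called. The fit without Zab replicate 1 did not call PSME3 (0.27, adjusted p = 0.104). With Zab replicate 2 left out, PSMD14 (0.29, adjusted p = 0.144) missed the threshold. Some calls were gained. Without WT replicate 2 the count was 12 of 43, with 18.4% of all genes called: PSMA5 (0.28), PSMB4 (0.24), PSMD13 (0.58) and PSMD7 (0.32) were then higher and the ATPase PSMC3 lower (−0.48, adjusted p = 0.0203). Without Zab replicate 2, PSMA5 (0.24) was called higher and the ATPase PSMC1 lower (−0.77, adjusted p = 0.00404), against −0.39 for PSMC1 with all libraries. PSME2 was called lower with edgeR (−0.35, adjusted p = 0.0467) and with the compared groups fitted alone (−0.37, adjusted p = 0.0325). On the deposited scale 51.9% of all genes were called, their median was −0.51, and the split of the members was 1 higher and 30 lower; only PSMF1 stayed called higher there.

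In Zab+MYC against MYC, which asks what Zab changed where MYC was overexpressed, 5 members were higher and 8 lower, beside 11.8% and 8.14% of all genes (20% in all). MYC was at 706 ± 1.27 CPM in Zab+MYC and 1263 ± 37.1 in MYC (SD, n = 2), so Zab and the lower MYC cannot be told apart here. Both genes of the activator pair rose. PSME1 was at 262 and 249 CPM in Zab+MYC and 178 and 180.0 CPM in MYC, a change of 0.51 ± 0.09 (adjusted p = 1.19e-05). PSME2 was at 84.2 and 71.6 CPM in Zab+MYC and 37.4 and 59.9 CPM in MYC, a change of 0.69 ± 0.17 (adjusted p = 0.00129). Both were above MYC and, as given below, still under WT. The scaffold subunit PSMD2 was at 251 and 216 CPM in Zab+MYC and 173 and 150.3 CPM in MYC, a change of 0.52 ± 0.11 (adjusted p = 0.000218). PSMB4 (0.26 ± 0.06, adjusted p = 0.00124) and the base chaperone PSMD10 (0.94 ± 0.32, adjusted p = 0.0284) were the other 2 that rose. PSME3 was at 332 and 286 CPM in Zab+MYC and 384 and 418 CPM in MYC, a change of −0.38 ± 0.10 (adjusted p = 0.00342). PSMA5 fell by 0.33 on the log2 scale (adjusted p = 0.000681). The other 6 that fell were PSMG1 (−1.0), PSMG4 (−0.72), PSMD14 (−0.35), PSMC6 (−0.32), PSMA3 (−0.30) and PSMG3 (−0.28). PSMB5 (0.056), PSMB6 (−0.047), PSMB7 (−0.094), PSME4 (−0.0057) and PSMF1 (0.078) were not called. PSMC4 (0.0014) was among the smallest changes, as were PSME4 and PSMA6 (−0.027). Both Zab+MYC libraries lay above both MYC libraries for 7 members (30.0% of all genes) and below them for 20 (30.2%).

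Of the 13 calls, that of PSMA5 alone held under all alternatives run. Library totals left 5 higher and 2 lower, with 19.7% of all genes called, and DESeq2 called 4, with 7.33% of all genes. On the deposited scale the median of all genes was −0.31 and the split 0 higher and 29 lower, and PSME1 (0.18), PSME2 (0.37), PSMD2 (0.20) and PSMD10 (0.65) were not called there while PSMB4 had −0.071. Leaving out MYC replicate 1, PSMB4 (0.16, adjusted p = 0.174), PSMC6 (−0.32, adjusted p = 0.148), PSMD10 (0.94, adjusted p = 0.118), PSMD14 (−0.30, adjusted p = 0.203), PSME2 (0.33, adjusted p = 0.3), PSMG1 (−1.09, adjusted p = 0.141) and PSMG4 (−0.70, adjusted p = 0.202) were not called. The fit without MYC replicate 2 did not call PSMA3 (−0.30, adjusted p = 0.127), PSMC6 (−0.39, adjusted p = 0.0572), PSMD10 (0.89, adjusted p = 0.14), PSME3 (−0.35, adjusted p = 0.0573), PSMG1 (−0.99, adjusted p = 0.196), PSMG3 (−0.26, adjusted p = 0.128) and PSMG4 (−0.80, adjusted p = 0.122). With Zab+MYC replicate 1 left out, PSMC6 (−0.33, adjusted p = 0.114), PSME2 (0.55, adjusted p = 0.0811), PSMG1 (−0.62, adjusted p = 0.381), PSMG3 (−0.19, adjusted p = 0.251) and PSMG4 (−0.85, adjusted p = 0.0682) missed the threshold. Dropping Zab+MYC replicate 2 left PSMA3 (−0.25, adjusted p = 0.274), PSMB4 (0.20, adjusted p = 0.0818), PSMC6 (−0.39, adjusted p = 0.0675), PSMD10 (0.68, adjusted p = 0.289), PSMD14 (−0.31, adjusted p = 0.154), PSME3 (−0.31, adjusted p = 0.0899) and PSMG4 (−0.65, adjusted p = 0.185) uncalled. The call of PSMG3 held without Zab+MYC replicate 2, at −0.44. Calls were gained for PSMA7 and PSMB2, each lower under 6 alternatives (−0.15 to −0.10 and −0.45 to −0.24), and for PSMC1, lower under 3 (−0.73 to −0.40). Among these were fits without Zab replicate 1 for all 3 genes, without Zab+MYC replicate 1 for PSMA7 and PSMC1, without Zab+MYC replicate 2 for PSMB2 and without MYC replicate 1 for PSMA7.

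Zab+MYC cells were compared with Zab cells to see what MYC changed in the presence of Zab. ADAR was at 1043 ± 34.7 CPM in Zab+MYC and 6100 ± 138 in Zab (SD, n = 2), so its level was not equal in both groups. The part of that difference in the changes below was not tested. Here 15 members were higher and 2 lower, beside 14.3% and 12.5% of all genes (26.8% in all), with a median of 0.21. The core held 8 of the 15. PSMB5 was at 267 and 267 CPM in Zab+MYC and 178 and 172 CPM in Zab, a change of 0.60 ± 0.10 (adjusted p = 3.63e-06). PSMB7 was at 199.5 and 210.5 CPM in Zab+MYC and 158 and 144 CPM in Zab, a change of 0.44 ± 0.12 (adjusted p = 0.0052). The third catalytic subunit, PSMB6, changed by 0.23 ± 0.07 (adjusted p = 0.0148), so all 3 rose. PSMA6 changed by 0.54 ± 0.10 (adjusted p = 2.87e-05), PSMA5 by 0.44 ± 0.07 (adjusted p = 3.41e-06), PSMA3 by 0.28, PSMA7 by 0.21 and PSMB3 by 0.20. In the base PSMC1 (0.59), PSMC6 (0.42) and PSMC4 (0.33) rose. PSMC1 was at 97.8 and 65.9 CPM in Zab+MYC and 39.5 and 69.8 CPM in Zab, with the longer transcript counted in the first library of each group. In the lid PSMD3 (0.44) and PSMD8 (0.32) rose. PSMG3 (0.46 ± 0.09, adjusted p = 2.59e-05) was the 1 chaperone called. PSME3 was at 332 and 286 CPM in Zab+MYC and 241 and 206 CPM in Zab, a change of 0.46 ± 0.10 (adjusted p = 0.000166). The 2 that fell were PSME1, at 262 and 249 CPM in Zab+MYC and 443 and 389 CPM in Zab (−0.70 ± 0.09, adjusted p = 3.05e-09), and PSME2, at 84.2 and 71.6 CPM in Zab+MYC and 109 and 131 CPM in Zab (−0.61 ± 0.17, adjusted p = 0.00346). PSME4 (0.092) and PSMF1 (−0.10) were not called, and PSMB4, PSMD9 and PSMD7 changed least, at −0.0033, −0.0063 and 0.015. Both Zab+MYC libraries lay above both Zab libraries for 21 members (30.0% of all genes) and below them for 3 (30.9%). DESeq2 called 7 members and 9.56% of all genes. Leaving out Zab replicate 1, PSMA3 (0.095, adjusted p = 0.641), PSMC1 (0.21, adjusted p = 0.526), PSMC4 (0.24, adjusted p = 0.156), PSMC6 (0.33, adjusted p = 0.0598), PSMD3 (0.34, adjusted p = 0.0772) and PSMD8 (0.29, adjusted p = 0.114) were not called. The fit without Zab replicate 2 did not call PSMB3 (0.17, adjusted p = 0.0509), PSMB6 (0.19, adjusted p = 0.129), PSMB7 (0.37, adjusted p = 0.0598) and PSME2 (−0.47, adjusted p = 0.0816). With Zab+MYC replicate 1 left out, PSMA3 (0.19, adjusted p = 0.376), PSMB3 (0.15, adjusted p = 0.0781) and PSMC1 (0.32, adjusted p = 0.369) missed the threshold. Dropping Zab+MYC replicate 2 left PSMA3 (0.38, adjusted p = 0.0533), PSMB6 (0.22, adjusted p = 0.0898), PSMB7 (0.40, adjusted p = 0.0765), PSMC4 (0.25, adjusted p = 0.162), PSMD8 (0.19, adjusted p = 0.382) and PSME2 (−0.49, adjusted p = 0.11) uncalled. The call of PSMA3 held without Zab replicate 2, at 0.47. The call of PSMC1 held without Zab replicate 2, at 1.0. PSMD14 was called higher under 7 alternatives (0.28 to 0.38), among them leaving out Zab replicate 2 or either WT library, and PSMA2 under 3 (0.30 to 0.46), among them leaving out Zab replicate 2 or Zab+MYC replicate 2. PSMD12 (0.68) was called without Zab replicate 2.

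Whether the change with MYC differed between cells with and without Zab was tested as an interaction, (Zab+MYC minus Zab) minus (MYC minus WT). It was called for 10 members, 2 positive and 8 negative, beside 14.6% and 13.3% of all genes (27.9% in all). The share of members called, 23.3%, was not above that of all genes. PSMB7, PSMG3, PSME3, PSMD14, PSMA5, PSMB3 and PSMA7 had negative values. Each of these 7 was higher in MYC than in WT by more than it was in Zab+MYC than in Zab. For PSME3 the change was 0.46 with Zab and 1.22 without it, an interaction of −0.75 ± 0.14 (adjusted p = 1.47e-05). For PSMG3 it was 0.46 with Zab and 1.2 without, an interaction of −0.74 ± 0.12 (adjusted p = 2.15e-06). For PSMB7 it was 0.44 with Zab and 1.15 without, an interaction of −0.72 ± 0.17 (adjusted p = 0.000944). The remaining values were −0.71 for PSMD14, −0.50 for PSMA5, −0.46 for PSMB3 and −0.36 for PSMA7. PSMF1 had the lowest value, −0.92 ± 0.20 (adjusted p = 0.000259): it was near its Zab+MYC level in both single-factor groups. PSMF1 was at 119 and 132 CPM in Zab+MYC, 114 and 122 CPM in MYC, 136 and 133 CPM in Zab and 63.1 and 69.4 CPM in WT. Only the WT libraries were low. PSME1 (0.55 ± 0.13, adjusted p = 0.000564) and PSME2 (1.06 ± 0.23, adjusted p = 0.000283) had positive values: their fall with MYC was smaller with Zab than without. PSME2 was at 84.2 and 71.6 CPM in Zab+MYC, 37.4 and 59.9 CPM in MYC, 109 and 131 CPM in Zab and 159.6 and 150.5 CPM in WT. The order from high to low was WT, Zab, Zab+MYC, MYC, with no overlap between neighbours. Among the catalytic subunits, PSMB5 (0.14) and PSMB6 (−0.089) were not called, nor was PSME4 (−0.24), and PSMC1, PSMD9 and PSMA2 had the smallest values, −0.031, −0.040 and 0.042. All 10 calls held under the 18 or 19 alternatives that could be run for each gene, and without MYC replicate 1 the value for PSME2 was 0.70. On the deposited scale, where the median of all genes was 0.22 and 29.9% of them were called, 7 members were positive and 8 negative. PSMA3 was called negative under 9 alternatives, at −0.61 to −0.38, among them leaving out replicate 1 of any genotype. Without WT replicate 2, PSMC3 (0.62), PSMD13 (−0.72) and PSMD7 (−0.38) were called, without Zab replicate 1 PSMD12 (−0.86), and without WT replicate 1 or Zab+MYC replicate 2 PSMB2 (−0.51 and −0.52).

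**Figure D4:**
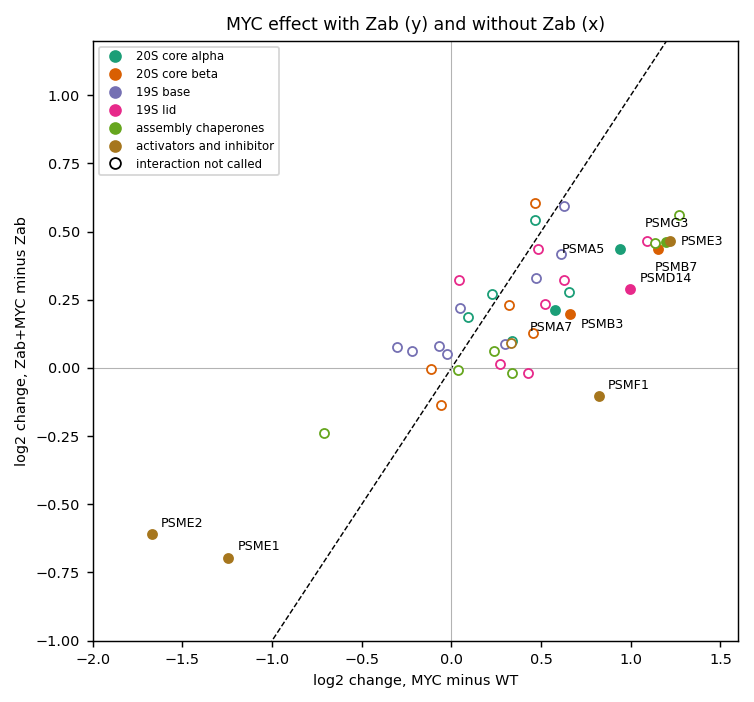
Log2 change with MYC in the presence of Zab (y, Zab+MYC minus Zab) against that without Zab (x, MYC minus WT) for 43 genes, coloured by role; filled points with names are the 10 called for the interaction and the dashed line marks equal changes. PSME1 and PSME2 lie above the line at the lower left, and the other 8 lie below it at the right.

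The 4 group means were also set in order, a description chosen after the values were seen. For 16 of 43 members (37.2%) the means climbed in the order WT, Zab, Zab+MYC, MYC, which is the order of MYC itself, and the same was so for 18.0% of all genes. They included PSMA5, PSMA7, PSMB7, PSMD14, PSMG3 and PSME3. On the deposited scale Zab lay below WT for 15 of these 16, PSMB7 being the exception. PSME1 and PSME2 were the only 2 members (4.65%) with the opposite order, which 17.2% of all genes had. For 30 members (69.8%) both groups with overexpressed MYC had higher means than both groups without, as did 31.5% of all genes.

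**Figure D5:**
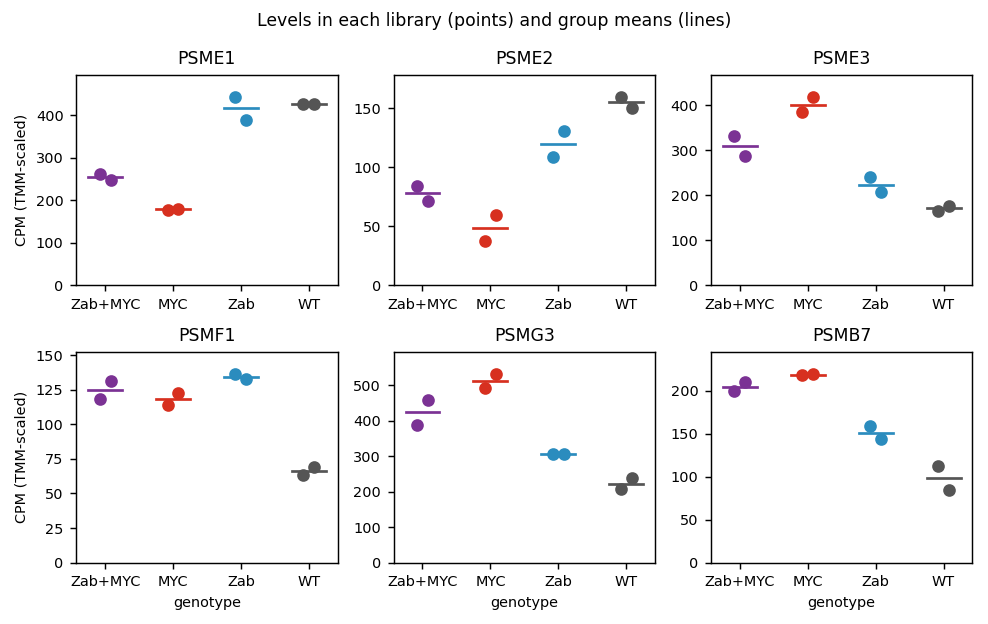
CPM in each library (points) and group means (lines) for 6 genes in Zab+MYC, MYC, Zab and WT. PSME1 and PSME2 are lowest in MYC, PSME3, PSMG3 and PSMB7 are highest in MYC, and PSMF1 is low in WT alone, at 63.1 and 69.4 CPM.

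Cells with both Zab and overexpressed MYC were last compared with WT. There 20 members were higher and 3 lower, beside 21.6% and 20.6% of all genes (42.3% in all), with a median of 0.27. PSMB7, at 199.5 and 210.5 CPM in Zab+MYC and 112 and 84.2 CPM in WT, had the largest rise, 1.06 ± 0.12 (adjusted p = 3.46e-11). The other catalytic subunits changed by 0.52 ± 0.10 (adjusted p = 2.47e-05) for PSMB5 and 0.27 ± 0.07 (adjusted p = 0.00197) for PSMB6, and PSMB3 by 0.60. Of the alpha genes PSMA5 (0.61), PSMA7 (0.48), PSMA6 (0.44) and PSMA3 (0.35) rose. In the base PSMC4 (0.47), PSMD2 (0.30) and PSMC6 (0.29) rose, and in the lid 5 of 8 did, led by PSMD12 (0.81), PSMD14 (0.64) and PSMD3 (0.56). PSMG3 was the 1 chaperone called, at 388 and 460.0 CPM in Zab+MYC and 207 and 238 CPM in WT (0.92 ± 0.09, adjusted p = 1.73e-14). PSMF1 (0.90 ± 0.14, adjusted p = 2.97e-07) and PSME3 (0.84 ± 0.10, adjusted p = 3.93e-11) rose, and PSME4 (0.33) was not called. PSME1 was at 262 and 249 CPM in Zab+MYC and 427 and 426 CPM in WT (−0.74 ± 0.09, adjusted p = 1.95e-10). PSME2 was at 84.2 and 71.6 CPM in Zab+MYC and 159.6 and 150.5 CPM in WT (−0.98 ± 0.17, adjusted p = 1.12e-06). With PSMB1 (−0.30) these were the 3 that fell. PSMD9 (−0.011), PSMG2 (0.043) and PSMA2 (0.091) changed least. Both Zab+MYC libraries lay above both WT libraries for 28 members (34.6% of all genes) and below for 4 (35.7%). DESeq2 called 15 members and 23.6% of all genes. On the deposited scale the split was 6 higher and 10 lower, with a median of all genes of −0.37 and 51.2% of them called. Leaving out WT replicate 1, PSMB1 (−0.22, adjusted p = 0.194), PSMB4 (0.074, adjusted p = 0.469), PSMD2 (0.33, adjusted p = 0.0509) and PSMD7 (0.11, adjusted p = 0.459) were not called. The fit without WT replicate 2 did not call PSMA3 (0.19, adjusted p = 0.231), PSMC6 (0.14, adjusted p = 0.42), PSMD11 (0.29, adjusted p = 0.0936) and PSMD2 (0.30, adjusted p = 0.0752). With Zab+MYC replicate 1 left out, PSMA3 (0.26, adjusted p = 0.145), PSMB4 (0.17, adjusted p = 0.0859), PSMC6 (0.33, adjusted p = 0.0673), PSMD2 (0.20, adjusted p = 0.247) and PSMD7 (0.14, adjusted p = 0.325) missed the threshold. Dropping Zab+MYC replicate 2 left PSMB1 (−0.19, adjusted p = 0.265), PSMB4 (0.14, adjusted p = 0.172), PSMC6 (0.27, adjusted p = 0.136) and PSMD11 (0.28, adjusted p = 0.115) uncalled. The call of PSMA3 held without WT replicate 1, at 0.53. The call of PSMC6 held without WT replicate 1, at 0.46. The call of PSMB4 held without WT replicate 2, at 0.24. The call of PSMD7 held without WT replicate 2, at 0.34. Gained without WT replicate 2 were PSMA4 (0.34), PSMD13 (0.56) and PSMC3 (−0.40). PSMB2 was called without WT replicate 1 (0.38) and without Zab+MYC replicate 1 (0.36), where PSME4 (0.65) was called too.

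Genes around the proteasome were taken from 4 further lists. Their calls are those of the main fit and were not checked under the alternatives, so their dependence on the scaling was not tested. Of 11 tested proteasome-associated genes, 5 rose in MYC against WT and none fell, beside 27.8% and 30.4% of all genes. Here and for the lists below, the shares of all genes called, set against WT, were 42.3% for Zab+MYC, 58.2% for MYC and 24.4% for Zab. Zab+MYC had 20% called relative to MYC and 26.8% relative to Zab, and the interaction 27.9%. ADRM1, a ubiquitin receptor of the base, was at 1786 and 1758 CPM in MYC and 777 and 835 CPM in WT, 2.2-fold higher (1.14 ± 0.05, adjusted p = 2.58e-32). UCHL5, the deubiquitinase that ADRM1 recruits, was 2.84-fold higher (1.51 ± 0.30, adjusted p = 1.75e-05), and USP14, another proteasome-bound deubiquitinase, 1.8-fold (0.85 ± 0.13, adjusted p = 7.98e-08). POMP, the maturation chaperone of the core (0.84), and the small lid subunit SEM1 (0.65) were the other 2. In Zab against WT, SEM1 (0.43) and ADRM1 (0.38) rose and USP14 (−0.39) fell. Between Zab+MYC and MYC only USP14 was called (−0.54). Between Zab+MYC and Zab, USP14 (0.70), ADRM1 (0.65), POMP (0.56) and TXNL1 (0.53) rose. Set against WT, Zab+MYC had higher levels of ADRM1 (1.04), UCHL5 (0.94) and SEM1 (0.59). The interaction was called, and negative, for UCHL5 (−1.25), SEM1 (−0.49) and ADRM1 (−0.48).

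The immunoproteasome subunits, which replace the catalytic subunits under interferon and were not among the 45, were low. PSMB8 had 61.5 and 66.5 tags in Zab and 28.5 and 33.0 tags in WT. It was 2.32-fold higher in Zab on the log2(CPM + 2) scale (1.21 ± 0.23, adjusted p = 2.25e-05). In Zab+MYC it had 32.5 and 21.5 tags, lower than in Zab (−1.39 ± 0.23, adjusted p = 1.37e-06). Its interaction was −1.26 ± 0.32 (adjusted p = 0.0017). PSMB10 rose in MYC against WT (0.62 ± 0.26, adjusted p = 0.0387), and PSMB9, with 1 to 9 tags per library, was not tested.

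Of 11 tested regulators of proteasome genes, 3 rose and 1 fell in MYC against WT, where 27.8% of all genes rose and 30.4% fell. DDI2, the protease that activates the proteasome gene regulator NFE2L1, was 2.92-fold higher (1.55 ± 0.19, adjusted p = 1.67e-10), and NGLY1, which deglycosylates NFE2L1, 1.59-fold (0.67 ± 0.25, adjusted p = 0.0177). FBXW7, a ubiquitin ligase subunit with MYC among its substrates, changed by 0.46 and the segregase VCP by −0.23. In Zab against WT only FBXW7 was called (0.70). In Zab+MYC, DDI2 rose by 1.06 against Zab and by 1.09 against WT, where NGLY1 (0.70) and FBXW7 (0.43) also rose. None of the 11 was called in Zab+MYC against MYC, and the interaction was called for FBXW7 (−0.73) and VCP (0.34). NFE2L1 itself, looked up after the values were seen, had −0.24 in MYC against WT and was not called.

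Of 23 tested ubiquitin, activation and shuttle genes, 9 rose and 7 fell in MYC against WT, beside 27.8% and 30.4% of all genes. RAD23B, a shuttle that carries ubiquitinated proteins to the proteasome, was 2.12-fold higher (1.08 ± 0.18, adjusted p = 3.23e-07). The deubiquitinase USP7 changed by 0.91 and the conjugating enzyme UBE2K by 0.89. In Zab against WT 4 rose and 6 fell, with the conjugating enzyme UBE2S at −0.91 and the shuttle UBQLN2 at −0.77. Zab+MYC against MYC had 3 genes higher and 2 lower, with UBE2K at −0.41, the ribosomal fusion gene RPS27A at −0.39 and the VCP cofactor NPLOC4 at 0.34. Against Zab 6 rose and 2 fell, with USP7 at 0.75, RAD23B at 0.56 and UBE2S at 0.52. Against WT 9 rose and 3 fell in Zab+MYC, with RAD23B at 0.71. The interaction was positive for 3 and negative for 4, with the deubiquitinase USP5 at 0.86 and UBQLN2 at 0.75.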

How the data were processed

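Total RNA of U2OS cells was extracted with Trizol and sequenced after an Abclonal library kit, per the labels. The authors deposited an exon signal per gene and library. Per the submitters' processing notes, the tools were HOMER 4.11.1, STAR and Trim Galore 0.6.6, with dm6 and hg19 named as builds without roles. Per the file headers, tags in exons of hg19 RefSeq coding genes were counted and 1 transcript kept per symbol. The use of strand in counting is not stated in those headers. Folder names in the file headers mention a spike-in. For each library 100% of the deposited signal values were whole multiples of 1 step (tolerance 0.1 step), and a tag was taken as 2 steps, an assumption that leaves folds unchanged. The scale itself served only as an alternative.

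Genes were kept with filterByExpr (9673 of 19414), scaled with TMM and tested with limma on log2(CPM + 2), with 1 mean per group over all 8 libraries, 4 residual degrees of freedom and a mean-variance trend. Tests were two-sided, and Benjamini-Hochberg adjusted p under 0.05 was called. Very small p-values rest on spread pooled over genes. Fold changes on this scale understate changes of low genes. The chi-square between the libraries of a genotype was 0.997 to 1.03 per gene, and 1.05 to 1.43 for genes of at least 1000 tags; since all pairs were alike, each library was counted. Floors of 3 tags cover counting error only. Levels per length use the transcript length counted most often, or the shortest of these where lengths were tied. Of the 45 members, 15 were counted on more than 1 transcript.

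The alternatives were RLE scaling, library totals, the deposited scale, all genes unfiltered, at least 5 CPM in 2 libraries, pseudocounts of 1 and 5 CPM, edgeR's quasi-likelihood test on recovered tags, DESeq2, the compared groups alone, a replicate block, genes counted on the same transcript in all libraries, and each library left out. The edgeR test called 5919 genes for MYC against WT, 2319 for Zab against WT, 2348 for Zab+MYC against MYC, 2514 for Zab+MYC against Zab, 4161 for Zab+MYC against WT and 2728 for the interaction. The limma and edgeR fits were tested on simulated data for MYC against WT alone, with 200 genes changed, where 5633 were called in the data. DESeq2, the other comparisons and the interaction were not simulated. Named genes are up to 3 called with the largest change per role and comparison, the 3 smallest changes, all interaction calls, the highest and lowest level per length, the catalytic subunits, PSME1 to PSME4, and up to 3 called per further list. Some genes of the further lists are counted but not reported here by name. Members and lists were chosen with earlier results of these data known. Software was DESeq2 1.42.0, edgeR 4.0.16 and limma 3.58.1 in R 4.3.3, and matplotlib 3.10.9, pandas 2.3.3 and numpy 2.4.6 in Python 3.11.15.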

Additional observations from a re-analysis of the deposited data

Results flagged for a closer look

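The change with MYC differed between cells with and without Zab, by the interaction test in limma, for 10 of 43 proteasome genes (23.3%), a smaller share than the 27.9% of all genes. The values, change with Zab minus change without Zab on the log2 scale, were −0.50 for PSMA5, −0.36 for PSMA7, −0.46 for PSMB3, −0.72 for PSMB7, −0.71 for PSMD14, −0.75 for PSME3, −0.92 for PSMF1 and −0.74 for PSMG3. They were 0.55 for PSME1 and 1.06 for PSME2. MYC itself was at 706 ± 1.27 CPM in Zab+MYC and 1263 ± 37.1 in MYC (SD, n = 2), and at 212 ± 25.1 in Zab and 83.7 ± 15.8 in WT, so the MYC contrast was smaller where Zab was present. ADAR was at 1043 ± 34.7 CPM in Zab+MYC and 6100 ± 138 in Zab, so the groups with Zab also differed in ADAR. The part of these differences in the values above was not tested.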

How the results depend on the processing

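The scaling mattered most. On the deposited scale the members called were 31 in Zab against WT (7 with TMM), 29 for Zab+MYC against MYC (13) and 26 for Zab+MYC against Zab (17); of all genes 51.9%, 36.4% and 30.4% were called there, against 24.4%, 20% and 26.8% with TMM. On that scale these log2 changes, each called on 1 scale or both, took the other sign: PSMA3 (−0.46), PSMA4 (−0.43), PSMA5 (−0.37), PSMA7 (−0.28), PSMB2 (−0.47), PSMB3 (−0.14), PSMB4 (−0.39), PSMB6 (−0.50), PSMC4 (−0.40), PSMC5 (−0.48), PSMD11 (−0.43), PSMD14 (−0.18), PSMD2 (−0.30), PSMD3 (−0.41), PSMD4 (−0.47), PSMD7 (−0.34), PSME3 (−0.16), PSMG3 (−0.081) in Zab against WT; PSMA1 (−0.29), PSMB4 (−0.071), PSMB5 (−0.27), PSMC4 (−0.33) in Zab+MYC against MYC; PSMB4 (0.15) in Zab+MYC against Zab; and PSMA1 (−0.25), PSMA2 (−0.29), PSMA3 (−0.031), PSMB4 (−0.24), PSMB6 (−0.11), PSMC5 (−0.23), PSMC6 (−0.091), PSMD11 (−0.040), PSMD2 (−0.082), PSMD7 (−0.17), PSMG2 (−0.34) in Zab+MYC against WT. The sources used here do not give how the deposited scale was made. Under the other alternatives, no member's change that was called in either fit took the other sign.

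The count of 13 for Zab+MYC against MYC became 7 with library totals, 7 with no filter and 4 with DESeq2, and the 17 for Zab+MYC against Zab became 7 with DESeq2. For Zab+MYC against WT, 23 became 15 with DESeq2 and 14 among the 29 members counted on 1 transcript in all libraries, where fewer genes were tested. In these 2 fits 23.6% and 47.6% of all genes were called. For the other moves the cause was not tested. With 1 library left out, the share of all genes called moved too, so the ranges that follow are not moves of the members alone. For each pair of groups, that share was lower without a library of either group than without a library of the other groups. Leaving out 1 library gave 25 to 30 calls for MYC against WT, 6 to 12 for Zab against WT, 6 to 16 for Zab+MYC against MYC, 11 to 18 for Zab+MYC against Zab, 19 to 23 for Zab+MYC against WT and 10 to 13 for the interaction. Calls that no alternative ended numbered 22 of 30, 1 of 7, 1 of 13, 7 of 17, 8 of 23 and 10 of 10 in that order. The edgeR test on recovered tags called 31, 8, 15, 19, 22 and 11 members in that order. Of all genes it called 61.2%, 24.0%, 24.3%, 26.0%, 43.0% and 28.2%. With replicate number as a block (replicate block), the counts were 30, 7, 13, 18, 23 and 11. Of all genes 58.4%, 25.2%, 20.8%, 27.5%, 42.9% and 28.5% were called there. Same-numbered libraries correlated at −0.023 to 0.014 in their deviations. Those deviations were little more than counting error, so the correlations cannot show whether the numbers pair the libraries. Depth limits PSMG1, PSMD10 and PSMG4, whose libraries held as few as 5, 11.5 and 13 tags.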
